A study of Ictalurus punctatus with 54 samples.

Results

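The step from 4 to 24 h after bacterial challenge was followed in the gills of channel catfish (Ictalurus punctatus) that were challenged immediately after copper sulfate (CuSO4) exposure. The tested fish, Cu0h-24h, were sampled 24 h after the challenge, and the fish they were set against, Cu0h-4h, 4 h after it. The labels of time and treatment chose 6 fish for each group, 12 of the 54 fish in the series, and every transcript in the files was considered. All 12 fish were fingerlings with a mean weight of 7.3 g in their population, had received copper, and had been challenged with F. covae, so that no uninfected and no copper-free fish enters the comparison. The labels give the copper sulfate as 2.1 mg/mL, whereas the methods of the study give the same figure per litre, and the labels name the bacterium F. columnare where the methods name F. covae. In these fish the time since the challenge and the time since copper passed together and cannot be told apart. The remaining groups used here are Cu24h-24h, Cu24h-4h and Cu24h-1h, challenged after 24 h of what the study calls recovery and the labels call exposure to copper, the Cu0h-1h fish sampled 1 h after an immediate challenge, uninfected fish taken at once (Cu0h) or 24 h (Cu24h) after copper, and no-treatment controls, with 6 fish in each.

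The gill is the respiratory and ion-exchanging surface of the fish and one of its mucosal barriers. F. covae is one of the bacteria that cause columnaris disease, in which gill and skin are colonized and eroded. Copper sulfate is used in ponds against algae, parasites and bacteria, and dissolved copper is toxic to gill epithelium. In bulk gill RNA, fewer cells of a type and less RNA per cell cannot be told apart.

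The files hold 1 estimated count per Ensembl transcript for 37586 transcripts, and 0 of their identifiers matched a named gene in the RefSeq table used here (assembly Coco_2.0). The results are therefore given for transcripts and groups of transcripts, without gene functions, and the gill label was not checked against marker genes. Library totals were 736773 to 1031603 (median 927434) in Cu0h-24h and 672284 to 1093928 (median 943998.5) in Cu0h-4h, and the number of transcripts detected at an equal depth of 352013 was 13628 to 17494 in Cu0h-24h and 13443 to 17311 in Cu0h-4h. The mean differences in total, in detected transcripts and in the share held by the 100 most abundant transcripts had exact two-sided permutation p of 0.855, 0.877 and 0.632 (0.877 each after Benjamini-Hochberg adjustment over 3 measures, smallest possible p 0.00216). Replicate 6 of Cu0h-24h and replicate 4 of Cu0h-4h stood apart from their groups, with the fewest detected transcripts and the smallest library of each group.

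Between 4 and 24 h after an immediate challenge, 98 transcripts differed. Of 8741 transcripts tested with edgeR's quasi-likelihood test, these 98 (1.12%) had an FDR below 0.05 and a log2 fold change above 1 in size, which is the definition of a differentially expressed transcript (DEG) used here. In Cu0h-24h 68 rose (0.778%) and 30 fell (0.343%) relative to Cu0h-4h. Without the 2 fish that stood apart 141 were called (88 higher, 53 lower), and 85 of them were among the 98. The count that fell rested on single fish, being 16 without replicate 6 of Cu0h-4h, and 18, 17 and 48 without replicates 4, 5 and 6 of Cu0h-24h. A further 9 transcripts had an FDR below 0.05 with a smaller fold change, and 999 had an unadjusted p below 0.05. Over all tested transcripts the median log2 fold change was -0.004, and the central 90% lay between -0.86 and 0.89.

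The transcripts that rose did so by a median log2 fold change of 2.04, within a range of 1.04 to 3.35, and 37 of the 68 exceeded 2. Their median level was 91.1 CPM (the count scaled for library size by TMM) in Cu0h-24h and 25.5 CPM in Cu0h-4h. The transcripts that fell had a median log2 fold change of -1.78, and 8 of the 30 exceeded 2 in size. Their median level was 80.6 CPM in Cu0h-24h and 217 CPM in Cu0h-4h. Over all tested transcripts the corresponding medians were 27.2 and 27.0 CPM. The called transcripts included abundant ones, with 33 of the 68 that rose and 20 of the 30 that fell above 100 CPM in their higher group, against 17.1% of tested transcripts. A call is easier to reach at high counts, and the higher group was taken of transcripts chosen for a difference. This excess is therefore in part given by the choice. The most abundant transcript that rose averaged 21051 CPM in Cu0h-24h and 10231 CPM in Cu0h-4h.

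Taken fish by fish, no Cu0h-24h value fell within the range of Cu0h-4h in 50 of the 68 transcripts that rose and in 17 of the 30 that fell. Among all tested transcripts the groups did not overlap in 137 (1.57%), with Cu0h-24h higher in 85 (0.972%) and lower in 52 (0.595%). These shares come from the contrast that defined the DEGs, so they describe the calls and do not add to them. The change was rarely all or none. No DEG had 0 counts in all fish of either group, and over all 37586 transcripts 1 was found in all 6 Cu0h-24h fish and in no Cu0h-4h fish, whereas 8 showed the reverse.

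**Figure D1:**
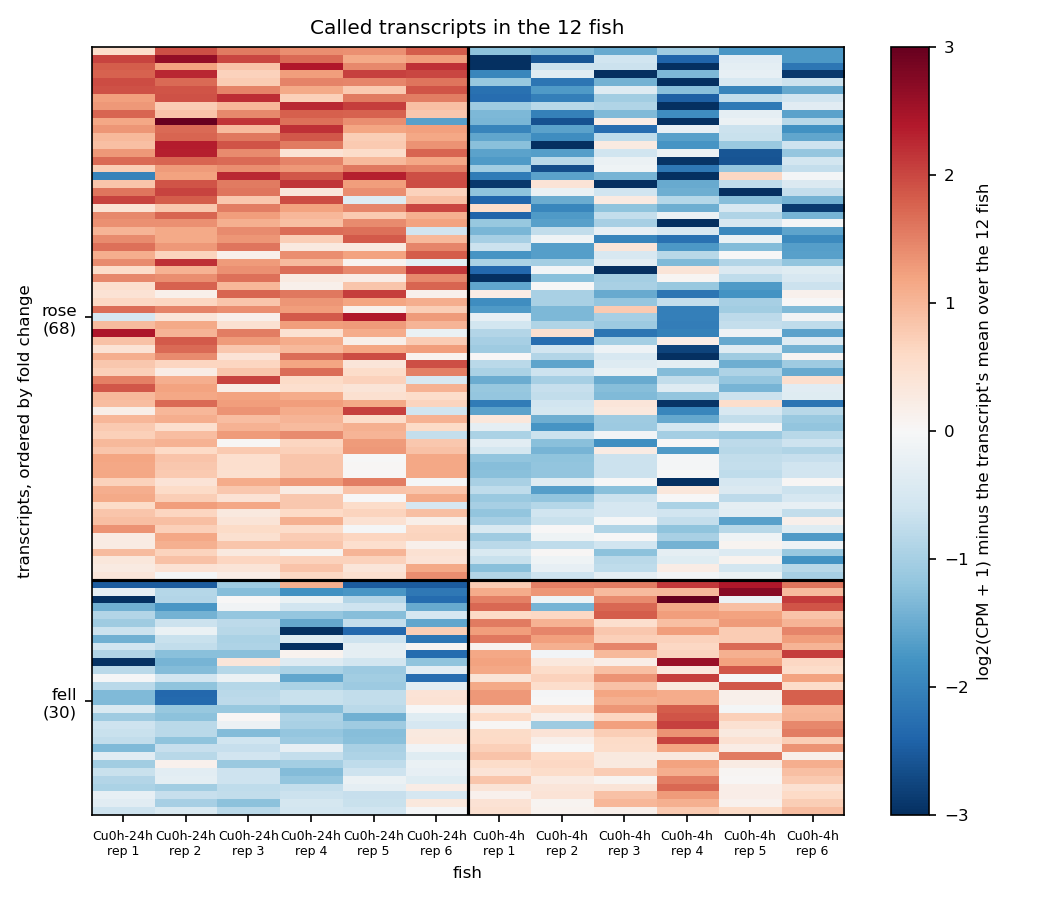
Level of the 98 called transcripts in each of the 12 fish, as log2(CPM + 1) minus the mean of the transcript over the 12 fish (colour, capped at 3 in either direction), with the 6 Cu0h-24h fish on the left and the 6 Cu0h-4h fish on the right, and each row 1 transcript ordered by the size of its fold change within the 68 that rose and the 30 that fell. The upper block is mostly red on the left and blue on the right and the lower block the reverse, with single cells of the other colour in both.

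Summed over their members, the called transcripts made up a few percent of the RNA counted. The 68 that rose held 3.38% to 4.31% of the count of a library in Cu0h-24h (median 3.46%) and 1.18% to 1.73% in Cu0h-4h (median 1.49%). The most abundant of them held most of this sum, with 1.70% to 3.23% in Cu0h-24h and 0.807% to 1.33% in Cu0h-4h, at a log2 fold change of 1.04 (edgeR FDR 0.048). The other 67 held 1.08% to 1.80% in Cu0h-24h (median 1.42%) and 0.295% to 0.413% in Cu0h-4h (median 0.371%). The 30 that fell held 0.840% to 1.16% in Cu0h-24h (median 0.916%) and 2.27% to 3.97% in Cu0h-4h (median 2.72%). None of these sums overlapped between the groups, but the transcripts were chosen on these same fish, so the separation is largely given by the choice. In the fish challenged after recovery, which had no part in choosing these transcripts, the first sum was 3.28% to 4.09% in Cu24h-24h and 1.29% to 2.97% in Cu24h-4h. The most abundant transcript averaged 22975 CPM in Cu24h-24h and 13081 CPM in Cu24h-4h. It rose there too (log2 fold change 0.82, edgeR FDR 0.0036), and was not called only because the fold change was below 1. The other 67 held 0.883% to 1.37% in Cu24h-24h and 0.380% to 0.954% in Cu24h-4h, which overlapped. The sum of those that fell was 0.806% to 1.13% in Cu24h-24h and 2.32% to 3.38% in Cu24h-4h. The sum over all 68 and that over the 30 were thus separate between 24 and 4 h in this schedule, and that over the 67 was not.

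**Figure D2:**
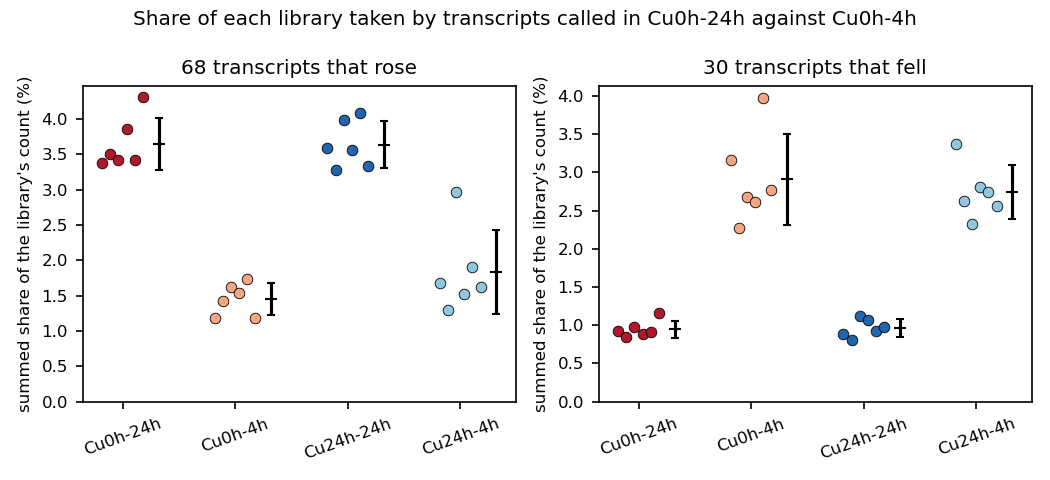
Share of the count of each library (%, vertical axis) held by the 68 transcripts that rose (left) and the 30 that fell (right), with 1 point per fish, and the mean and SD of 6 fish drawn beside each group. The Cu0h-24h fish lie at 3.38% to 4.31% on the left and 0.840% to 1.16% on the right. They do not overlap the Cu0h-4h fish, which is largely given because the transcripts were chosen on these fish. The Cu24h-24h fish, which took no part in the choice, do not overlap the Cu24h-4h fish either. On the left 1 abundant transcript holds 1.70% to 3.23% of the count in Cu0h-24h and 0.807% to 1.33% in Cu0h-4h. On the right 2 transcripts that may share reads average 7173 and 7745 CPM in Cu0h-4h, and the sum without them was not computed.

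A pair of transcripts that rose and a pair that fell were taken by rule, as the DEG with the largest fold change and the one with the smallest p among the rest, out of 37 that rose and 15 that fell with groups that did not overlap and a mean scaled count of at least 50. ENSIPUT00000023309 stood at 379, 575, 372, 303, 205 and 223 CPM in the 6 Cu0h-24h fish, against 9.49, 14.9, 61.0, 16.6, 72.7 and 27.4 CPM in the 6 Cu0h-4h fish. The lowest fish at 24 h was above the highest at 4 h, and the rule required such a separation of all 4 named transcripts. The mean was 343 ± 135 CPM in Cu0h-24h and 33.7 ± 26.6 CPM in Cu0h-4h (SD, n = 6 each), a log2 fold change of 3.33 (SE 0.40, edgeR FDR 0.000147). The transcript had 0 counts in all 6 control fish and averaged 12.9 CPM in Cu0h and 20.4 CPM in Cu0h-1h, so that its level was low before 24 h. The Cu0h mean rests on 5 to 14 counts in replicates 1 to 4, with 0 counts in replicates 5 and 6.

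ENSIPUT00000029733 stood at 588, 581, 442, 342, 270 and 579 CPM in the Cu0h-24h fish, against 32.3, 47.3, 119, 64.8, 38.9 and 53.1 CPM in the Cu0h-4h fish. Again every fish at 24 h exceeded every fish at 4 h. Its mean was 467 ± 138 CPM in Cu0h-24h and 59.2 ± 31.3 CPM in Cu0h-4h (SD, n = 6 each), a log2 fold change of 3.0 (SE 0.31, edgeR FDR 6.0e-05). It averaged 11.8 CPM in controls, 30.9 CPM in Cu0h and 44.6 CPM in Cu0h-1h.

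Of those that fell, ENSIPUT00000026479 stood at 60.7, 39.4, 29.3, 19.8, 20.9 and 15.6 CPM in the Cu0h-24h fish, against 158, 183, 141, 143, 487 and 139.8 CPM in the Cu0h-4h fish. The groups did not overlap, and replicate 5 of Cu0h-4h lay far above the other fish of its group. The mean was 31.0 ± 16.8 CPM in Cu0h-24h and 208 ± 138 CPM in Cu0h-4h (SD, n = 6 each), a log2 fold change of -2.73 (SE 0.38, edgeR FDR 0.000569), and leaving out each fish in turn gave -2.99 to -2.30. Its group means were 120 CPM in controls, 138 CPM in Cu0h and 472 ± 222 CPM in Cu0h-1h, so that the highest group mean of the immediate schedule was the one at 1 h and the lowest the one at 24 h.

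ENSIPUT00000036786 stood at 109, 74.7, 90.4, 90.3, 83.0 and 142 CPM in the Cu0h-24h fish, against 305, 312, 717, 483, 469 and 368 CPM in the Cu0h-4h fish. Every fish at 24 h was below every fish at 4 h. The mean was 98.2 ± 24.2 CPM in Cu0h-24h and 442 ± 154 CPM in Cu0h-4h (SD, n = 6 each), a log2 fold change of -2.18 (SE 0.25, edgeR FDR 0.000106). It averaged 1194 CPM in controls, 613 CPM in Cu0h and 315 CPM in Cu0h-1h, and so was already below the control mean at 4 h. No other tested transcript had a profile with a correlation of 0.99 or more with any of these 4 over the 54 fish.

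**Figure D3:**
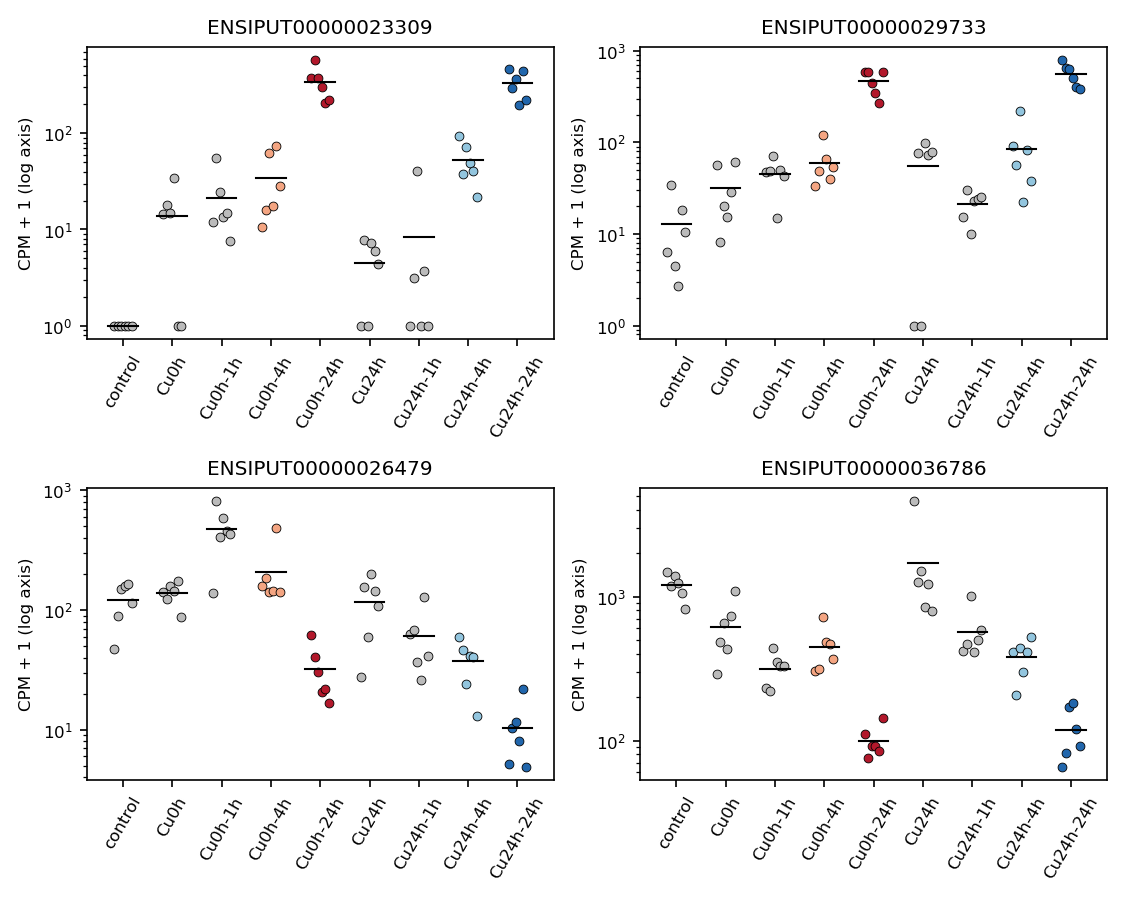
Level of the 4 named transcripts in all 9 groups, as CPM + 1 on a log axis, with 1 point per fish and a bar at the group mean; groups run in time order within each copper schedule, Cu0h-24h is dark red and Cu0h-4h light red, and Cu24h-24h is dark blue and Cu24h-4h light blue. The upper 2 transcripts are higher in every Cu0h-24h fish than in any Cu0h-4h fish, and the lower 2 are lower. The rule that chose them required this separation.

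Some DEGs moved as 1 profile. Among the 98, 3 sets had correlations of 0.99 or more over all 54 fish, with 8 transcripts in all, which left 93 distinct profiles (65 that rose and 28 that fell). Such sets may share reads, and how reads were divided between similar transcripts is uncertain. A pair that fell was the most abundant of them, at 2025 and 2153 CPM in Cu0h-24h and 7173 and 7745 CPM in Cu0h-4h on average. Summed over this pair, the fish held 3155 to 6038 CPM (median 4023) in Cu0h-24h and 9365 to 27492 CPM (median 12535) in Cu0h-4h. A further pair that fell averaged 101 CPM for each member in Cu0h-24h, and 332 and 338 CPM in Cu0h-4h. Its members overlapped between the groups.

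The largest set held 4 transcripts that rose with log2 fold changes of 1.43 to 1.52 (edgeR FDR 0.0022 to 0.0044). Summed over the set, the Cu0h-24h fish held 1689 to 3739 CPM (median 2953) and the Cu0h-4h fish 723 to 1628 CPM (median 1032), without overlap. Each member averaged 530 to 901 CPM in Cu0h-24h, 199 to 317 CPM in Cu0h-4h and 171 to 268 CPM in Cu0h-1h, whereas controls had 540 to 876 CPM and Cu0h fish 465 to 740 CPM. At 24 h the group means of this set were thus close to those of the controls, and those at 1 and 4 h were lower.

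The position of the DEGs relative to the no-treatment controls differed from 1 transcript to the next, and was classed by whether the group mean lay within 1 on the log2(CPM + 1) scale of the control mean. This grouping was chosen after the data were seen and carries no test. Of the 68 that rose, 35 were above control at both times, 20 were near control at 4 h and above it at 24 h, 9 were below control at 4 h and near it at 24 h, and 4 were near it at both. Of the 30 that fell, 12 were below control at both times, 11 were near control at 4 h and below it at 24 h, 4 were above at 4 h and near at 24 h, 2 were near at both and 1 was above at both. At 24 h, then, 55 of the transcripts that rose lay above control and 23 of those that fell lay below it. Without the 2 fish that stood apart these counts were 55 and 22. Among all 8741 tested transcripts 27.6% were above control at 24 h, 14.4% were below it, and 51.5% were near control at both times. The Cu0h-24h and Cu0h-4h fish chose the DEGs. At 24 h this by itself favours values above control for those that rose and below it for those that fell. The filter for tested transcripts also used these fish and not the controls. Control libraries had a median of 700987.5 counts, against 927434 in Cu0h-24h and 943998.5 in Cu0h-4h. Their median of transcripts detected at equal depth was 14998, against 16868.5 in Cu0h-24h and 17003.5 in Cu0h-4h. Whether this bears on the classes was not tested.

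Over the whole immediate schedule, the transcripts that rose had a median log2 ratio to control of 1.10 in Cu0h, 1.26 in Cu0h-1h, 1.09 in Cu0h-4h and 2.84 in Cu0h-24h. Those that fell had -0.45, -1.03, -0.66 and -2.09 at the same 4 points. All tested transcripts had medians of 0.03, 0.33, 0.31 and 0.33. Because Cu0h-4h and Cu0h-24h chose the transcripts, the change between these last points is given by the choice. The values at Cu0h and Cu0h-1h come from other fish, and there the median of the transcripts that rose was already above the control. Replicates 1 to 4 of Cu0h had few detected transcripts. In the other 2 Cu0h fish the medians were 1.22 for those that rose, -0.47 for those that fell and 0.24 for all tested.

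**Figure D4:**
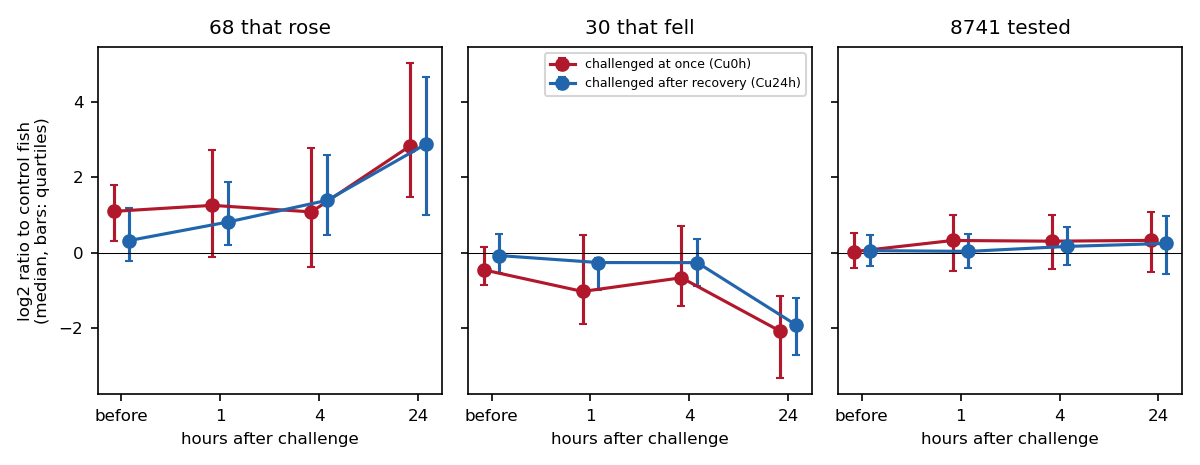
Median log2 ratio of group mean to control mean (points, CPM + 1) with the quartiles over transcripts (bars), for the 68 transcripts that rose, the 30 that fell and all 8741 tested, before the challenge and 1, 4 and 24 h after it, in fish challenged at once (red) and after recovery (blue). In both schedules the medians of the first set are highest (2.84 and 2.89) and those of the second lowest (-2.09 and -1.92) at 24 h.

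The step before it, from 1 to 4 h, gave no call. In Cu0h-4h against Cu0h-1h, 0 of 8567 transcripts were DEGs (0%) by edgeR's quasi-likelihood test with TMM scaling, with 754 at an unadjusted p below 0.05 and groups that did not overlap in 72 (0.84%). DESeq2's Wald test called 30, limma voom 1, and the edgeR fit over all 9 groups 69. Both comparisons share the Cu0h-4h fish and whether the numbers of calls differ was not tested. For the named transcripts, the log2 fold changes in this earlier step were 0.70 for ENSIPUT00000023309, 0.37 for ENSIPUT00000029733, -1.20 for ENSIPUT00000026479 and 0.45 for ENSIPUT00000036786, with edgeR FDR of 0.374 to 0.819.

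The same interval was then read in the fish challenged after recovery, which share no fish with the immediate schedule. Cu24h-24h against Cu24h-4h gave 905 DEGs of 7342 transcripts tested (12.3%), 456 higher (6.21%) and 449 lower (6.12%), and groups that did not overlap in 538 (7.33%). The coefficient of variation between fish, by edgeR's common estimate, was 0.488 in the immediate step and 0.426 in the recovered one. Whether the numbers of calls differ between the schedules was not tested. Of the immediate-schedule transcripts that rose, 62 were tested in the recovered schedule, with a median log2 fold change of 1.13, and 53 were positive and 31 were DEGs that rose. Of them, 0 were DEGs that fell there. Of those that fell, 28 were tested there, with a median of -1.71, and 27 were negative and 23 were DEGs that fell. Over all transcripts tested in the recovered schedule the median was 0.007 and 50.3% were positive. The median of the transcripts that rose depended on replicate 3 of Cu24h-4h, in which they held 2.97% of the count, and was 1.62 without that fish.

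Among the 6998 transcripts tested in both schedules, 54 were DEGs in each, 31 that rose in both and 23 that fell in both, and 0 went opposite ways. They made up 60% of the 90 immediate-schedule DEGs and 6.28% of the 860 recovered-schedule DEGs in that set. Across transcripts the correlation of the log2 fold changes was 0.39, a description in which transcripts are not independent replicates. The recovered-schedule DEGs moved less after the immediate challenge. The 442 that rose after recovery had a median log2 fold change of 0.36 in the immediate schedule and 1.38 in the recovered one, and 418 of them were smaller in the immediate one. The 418 that fell had medians of -0.45 in the immediate and -1.44 in the recovered schedule, and 403 were smaller in size in the immediate schedule. Of the 6138 transcripts that were not DEGs after recovery, 3761 were also smaller in size in the immediate schedule. The DEGs of the recovered schedule were chosen on the recovered fish, which by itself makes their change there the larger. In the mirror reading, 47 of the 62 tested immediate-schedule DEGs that rose were smaller in size after recovery. So were 14 of the 28 that fell, and these were chosen on the immediate fish.

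**Figure D5:**
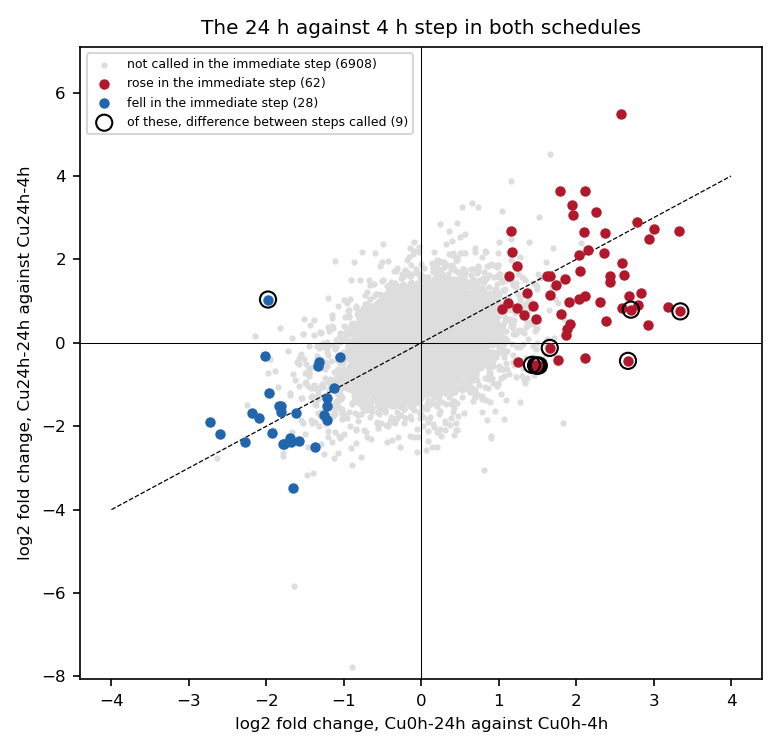
Log2 fold change from 4 to 24 h after an immediate challenge (Cu0h-24h against Cu0h-4h, horizontal) and after a challenge following recovery (Cu24h-24h against Cu24h-4h, vertical) for 6998 transcripts, with those that rose in the immediate schedule in red (62), those that fell in blue (28), and circles on those whose difference between the schedules was called; the dashed line marks equal change. Most red points lie above 0 on the vertical axis (53 of 62) and most blue points below it (27 of 28).

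All 4 named transcripts were also DEGs in the recovered schedule, in the same direction. ENSIPUT00000023309 averaged 331 ± 114 CPM in Cu24h-24h and 51.7 ± 26.3 CPM in Cu24h-4h (SD, n = 6 each), a log2 fold change of 2.68 (edgeR FDR 2.28e-05). ENSIPUT00000029733 averaged 559 ± 158 CPM in Cu24h-24h and 84.4 ± 71.3 CPM in Cu24h-4h, a log2 fold change of 2.74 (edgeR FDR 0.000129). ENSIPUT00000026479 averaged 9.32 ± 6.20 CPM in Cu24h-24h and 36.3 ± 16.3 CPM in Cu24h-4h, a log2 fold change of -1.90 (edgeR FDR 0.00526). ENSIPUT00000036786 averaged 118 ± 48.4 CPM in Cu24h-24h and 380 ± 112 CPM in Cu24h-4h, a log2 fold change of -1.68 (edgeR FDR 0.000298). The differences between the schedules in these steps were 0.69 (SE 0.53), 0.30 (SE 0.51), -0.80 (SE 0.67) and -0.48 (SE 0.37) on the log2 scale, with edgeR FDR of 0.593 to 0.840, so that a difference between the schedules was not detected for any of the 4.

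Tested directly as an interaction on the 24 fish, the step differed between the schedules in 111 of 10685 transcripts (1.04%), being more positive after the immediate challenge in 57 and more negative in 54. In 83 of the 111 the log2 ratios of the group means had opposite signs in the schedules, in 26 they had the same sign and were larger after recovery, and in 2 they had the same sign and were larger after the immediate challenge. The 111 were chosen on the difference between the steps, which by itself favours opposite signs and values that lie apart. A sign alone is not a call, and the share of opposite signs over all tested transcripts was not counted. Of the 111, some of which were not tested in a single step, 10 were DEGs of the immediate step, 82 were DEGs of the recovered step and 0 were both. Over all transcripts tested in each step, 1.12% were DEGs of the immediate and 12.3% of the recovered one. The same fish enter the interaction and the steps, so these counts are in part given by the choice. The 57 had a median log2 ratio of 0.35 in the immediate step and -1.55 in the recovered step, and the 54 had -0.29 in the immediate and 1.53 in the recovered step. Leaving out single fish brought this count to between 65 and 144, and it was 67 without replicate 5 of Cu0h-4h, 73 without replicate 3 of Cu0h-24h, 73 without replicate 1 of Cu24h-4h, and 65 and 71 without replicates 1 and 2 of Cu24h-24h.

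The immediate-step DEGs called in the interaction were 9 that rose and 1 that fell. The set of 4 like profiles was among them. It had log2 fold changes of -0.53 to -0.55 in the recovered step (edgeR FDR 0.135 to 0.148), and differed between the schedules by 1.99 to 2.09 (edgeR FDR 0.0030 to 0.0040). Summed, the set held 1231 to 2114 CPM in Cu24h-24h fish (median 1868) and 1492 to 4602 CPM in Cu24h-4h fish (median 2130). The interaction uses the 12 fish that chose these DEGs, so a larger immediate than recovered change is in part given by the choice.

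The classes relative to control were also read in the recovered schedule, as a description. The 9 transcripts that rose from below control had a median log2 fold change of -0.43 in the recovered step, 6 of them were negative, and 5 were called in the interaction. The set of 4 like profiles belongs to these 9, and counted as 1 profile it left 6 profiles with a median of 0.03, of which 3 were negative and 2 were called in the interaction. The 55 that were above control at 24 h had a median of 1.56 over the 50 tested, with 30 DEGs that rose after recovery and 3 called in the interaction. The 23 that fell below control had a median of -1.82 over the 22 tested, with 20 DEGs that fell after recovery and 0 called in the interaction. A pair of like profiles is among them, and counted as 1 it left 21 tested profiles with 19 DEGs. Of the 5 that were above control at 4 h and fell, 4 were tested after recovery, 3 were negative and 2 were DEGs that fell. These 2 are the abundant pair of like profiles. Counted as 1 profile, the pair left 3 tested profiles, of which 2 were negative and 1 was a DEG. Over all tested transcripts 1.04% were called in the interaction, and 6.21% rose and 6.12% fell as DEGs after recovery. The classes rest on fish that also enter the interaction. Low Cu0h-4h values by themselves favour a call there, so the interaction calls are not compared between classes.

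The levels at 24 h were also set side by side between the schedules, and whether they were close was not tested. For the 68 transcripts that rose, the median log2 ratio of Cu0h-24h to Cu24h-24h was 0.22 (quartiles -0.14 and 0.70, 45 higher). That of Cu0h-4h to Cu24h-4h was -0.61 (19 higher). For the 30 that fell these medians were -0.13 (quartiles -0.57 and 0.17) and -0.10. Over all 8741 tested transcripts they were 0.07 (quartiles -0.22 and 0.36, 4935 higher) and 0.12 (4952 higher). Single transcripts could differ more than these medians. The Cu0h-24h and Cu0h-4h fish chose the transcripts. For those that rose, this by itself favours high values in Cu0h-24h and low values in Cu0h-4h.

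Other fish that share none with the step were read for the same transcripts. Replicates 1 to 4 of Cu0h and 1 and 3 of Cu24h stood apart among the uninfected fish given copper. They had 11392 to 13905 transcripts detected at equal depth, against 17334 to 18810 in the other 6 fish of these 2 groups. The controls lay between, at 14527 to 15532, and the Cu0h-1h fish had 16384 to 17316. In Cu0h-1h against Cu0h, the 46 of the 68 that were tested had a median log2 fold change of 0.12, with 3 DEGs that rose and 8 that fell. All 7625 transcripts tested there had a median of 0.13, and 6.75% were DEGs, 1.8% that rose and 4.96% that fell. The 28 of the 30 that were tested had a median of -0.81, with 1 DEG that rose and 5 that fell. The paper, which describes another aligner and counter and works with genes, reports that none were differentially expressed in this contrast. The share of DEGs found here therefore differs from the paper, and the reason was not tested. The Cu0h libraries that stood apart enter these calls, and how many calls rest on them was not tested. In Cu24h against Cu0h, without any challenge, 36 of the 68 were tested, with a median of -0.51 and 9 positive, and 1 was a DEG that rose and 1 a DEG that fell. For the 30, 28 were tested and had a median of 0.23 and 0 DEGs. All 6969 transcripts tested there had a median of 0.08, with 55.2% positive and 0.201% DEGs (0.115% higher and 0.0861% lower in Cu24h). These were 14 DEGs. For this contrast the paper reports many more, most of them lower after recovery. The reason for this difference was not tested either. The 6 libraries that stood apart were then left out, a choice made after seeing the data that left 2 fish in Cu0h and 4 in Cu24h. The medians in Cu24h against Cu0h were then -0.91 for those that rose, 0.15 for those that fell and 0.03 for all tested. In Cu0h-1h against Cu0h they were -0.052 for those that rose, which turns the sign, -0.51 for those that fell and 0.05 for all tested. These fish differ from the step in their times after copper, and how much of the step passes without bacteria was not tested.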

How the data were processed

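Poly(A) RNA libraries of single fish were sequenced by the authors. They deposited effective counts, an estimated count per Ensembl transcript rounded to whole numbers, with no scaling for depth. The submitters' processing notes list Trim Galore 0.5.0, Bowtie2 2.3.4.3, eXpress 1.5.1 and DESeq2 1.24.0 without roles, whereas the paper describes another aligner and counter, and for the transcript build the sources used here give none. How eXpress or a like program divided reads between similar transcripts can change any value of a single transcript.

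Files were joined by identifier and fish were grouped by their labels. In R 4.3.3 and edgeR 4.0.16 the transcripts of each comparison were filtered with filterByExpr by group (minimum count 10, minimum total count 15). The filter asks for the minimum count, scaled for library size, in as many libraries as the smallest group holds. A transcript can thus pass through a single group. TMM scaling and the quasi-likelihood F-test with Benjamini-Hochberg adjustment followed. Calls needed an FDR below 0.05 and a log2 fold change above 1 in size. Standard errors were approximated from the fold change and F. CPM used TMM over all 54 libraries. Single measures per fish were compared by exact permutation over 924 splits. The difference between schedules was an interaction on 24 libraries. The procedure was tested on simulated data.

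The members, named-transcript rule and lists were chosen with earlier results of these data known. Named transcripts were, per direction, the DEG with the largest fold change and that with the smallest p among the rest, out of those with groups that did not overlap and a mean scaled count of 50 or more; no further identifiers are printed because none has a gene name. Planned gene and marker lists could not be used for the same reason. Each treatment group was kept in replicate tanks, and which tank each sampled fish came from is not stated, so p-values measure the spread between fish, which may include that between tanks. Among 30 pairs of fish in the Cu0h-24h and Cu0h-4h groups the smallest chi-square per transcript was 6.29 and no files were identical. Alternatives were DESeq2 1.42.0 (size factors and Wald test), limma 3.58.1 voom, testing without the filter, a fit of all 9 groups, a block for the replicate number, edgeR's older quasi-likelihood method, libraries thinned to equal depth and leaving out fish. Fish challenged without copper were not analysed here.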

Additional observations from a re-analysis of the deposited data

Results flagged for a closer look

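In 40 checks of groups of 6 fish for a value far from the others, 7 were marked. Chance flags about 1 in 20 where values are normally distributed and checks are independent. The same fish entered several measures here, so the checks were not independent and the 7 were not compared with that rate. Replicate 6 of Cu0h-24h had 13628 transcripts detected at equal depth, with the next lowest fish at 16289, and a mean correlation with its group of 0.760. Replicate 4 of Cu0h-4h had 13443, with the next lowest at 15955, and a mean correlation of 0.735. ENSIPUT00000026479 was at 487 CPM in replicate 5 of Cu0h-4h, with the next highest fish at 183 CPM. In replicate 3 of Cu24h-4h the transcripts that rose in the immediate schedule held 2.97% of the count, with the next highest fish at 1.91%, and ENSIPUT00000029733 was at 220 CPM, with the next highest at 89.7 CPM.

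By the interaction test the step from 4 to 24 h differed between the immediate and the recovered schedule in 111 transcripts. Among them the set of 4 transcripts with like profiles differed by up to 2.09 on the log2 scale.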

How the results depend on the processing

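For the immediate step, DESeq2's Wald test called 170 transcripts (106 higher, 64 lower), no low-count filter 442 (236 and 206), and 1 fit of all 9 groups 184 (124 and 60). With the replicate number as a block 64 were called (16 lower). The numbers did not pair the fish, since same-numbered fish correlated at -0.188 to 0.0699 and 0 of 6 fish were closest to their own number. The older quasi-likelihood method called 17 lower transcripts, and leaving out both Cu0h-4h replicate 4 and Cu0h-24h replicate 6 gave 53 lower ones. Leaving out each fish in turn gave 70 to 138 calls, 53 to 90 higher and 16 to 48 lower. The lower count was 16 without Cu0h-4h replicate 6, and 18, 17 and 48 without Cu0h-24h replicates 4, 5 and 6. The recovered step had 1617 calls with no filter, 577 after thinning, and 757 to 1076 with each fish left out. The interaction had 212 calls by DESeq2, 318 with no filter, 52 by the older method, 154 without both fish, and 65 to 144 with each fish left out. The step from 1 to 4 h had 30 calls by DESeq2, 56 with no filter, 69 with all 9 groups, 1 with the block, 1 by limma voom, 2 after thinning, 1 without both fish, and 0 to 2 with each fish left out. In the recovered step, the median of transcripts that rose was 1.53 after thinning, 1.05 without both fish and 1.62 without Cu24h-4h replicate 3, a choice made after seeing the data. That of transcripts that fell was -1.06 with no filter, -1.34 with all 9 groups, -1.43 by limma voom, -1.35 without both fish and -1.77 without Cu24h-4h replicate 3. Without the 6 libraries of Cu0h and Cu24h with few detected transcripts, also chosen after seeing the data, 2 Cu0h fish were left. The median of transcripts that rose was then -0.052 in Cu0h-1h against Cu0h. The share held by the 10 most abundant transcripts was higher in Cu0h-24h by 0.262 percentage points (exact permutation p = 0.861), whereas that of the top 100 differed by -0.988 points. The 4 named transcripts kept their direction and call under all 21 alternatives each. The causes were not tested.

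At 672284 to 1093928 counts per library, 8741 of 37586 transcripts passed the filter, and the others were not tested in the main comparison. These are totals of the deposited counts, and the paper states far more reads per sample. The reason for this gap was not tested. No test here takes account of tanks.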
